A study of Mus musculus with 6 samples.

Results

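The tumour necrosis factor (TNF) superfamily joins ligands, most of them trimers held in the cell membrane or shed from it, to receptors that carry cysteine-rich repeats. Receptors with a death domain can recruit caspase 8 through the adaptors Tradd and Fadd, the others bind TRAF adaptors that lead to NF-kB and stress kinases, and decoy or soluble receptors take up ligand without a signal. In the vessel wall the family is best known for the response of smooth muscle to TNF and TWEAK, and for RANKL and osteoprotegerin, regulators of bone resorption that have also been linked to arterial calcification. Members were the genes whose symbol is Tnfsf or Tnfrsf with a number, together with Tnf, Lta, Ltb, Ltbr, Fas, Fasl, Cd40, Cd40lg, Cd70, Cd27 and Ngfr. That rule gave 42 genes of the 56393 in the deposited table, of which 17 are ligands and 25 are receptors.

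The RNA came from primary vascular smooth muscle cells of the mouse, which contract the artery wall, cultured in medium with 20% fetal bovine serum and given no other treatment. The cells were either knocked out for Nono (KO, 3 libraries), the gene of an RNA- and DNA-binding paraspeckle protein, or wild type (WT, 3 libraries). The labels do not say how the knockout was made, from which strain, sex or age of mouse the cells came, or whether the replicates of a genotype are separate cultures. The p-values therefore cover no more than the spread among these 6 libraries, which may be technical. The study is about BMP2 and vascular calcification, and the comparison asks which genes differ with the loss of Nono.

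Libraries held 56529170 to 61670083 counts. Nono was 53.9 ± 2.55 CPM in KO and 515 ± 10.99 CPM in WT (CPM, counts relative to the TMM-scaled library size, mean ± SD, n = 3 each), 9.54-fold lower (edgeR adjusted p = 1.63e-09). The summed level of Ddx3y, Eif2s3y, Kdm5d and Uty, all Y-linked, was 149.9 to 163 CPM in KO and at most 0.0795 CPM in WT. Xist, the transcript of the inactive X chromosome, was low in both, at 0.544 CPM in KO and 0.512 CPM in WT (edgeR adjusted p = 0.884), and genotype and whatever else separates these cells cannot be told apart. Of 8 smooth muscle markers, 5 were higher and 2 lower in KO. Their summed level was 245 to 249 CPM in KO and 67.4 to 76.4 CPM in WT. Most of it was Acta2, at 161 CPM in KO and 16.4 CPM in WT, and Smtn, at 58.1 CPM in KO and 47.8 CPM in WT. Tagln, Cnn1 and Lmod1 were higher in KO too, from 0.858, 0.0212 and 1.41 CPM in WT. Des was 5.06-fold lower, Myocd had 0 counts in KO and 79 in WT, and Myh11 was under 1 CPM in both. Of 10 fibroblast markers, 9 were higher, with sums of 10670 to 11550 CPM in KO and 875 to 1026 CPM in WT. Among all tested genes 35.1% were higher and 34.2% lower at an adjusted p of 0.05. Of leukocyte and T cell markers, Ptprc, Cd3e, Cd3d and Cd2 had 0 counts in every library, as did the macrophage markers Adgre1, Itgam, C1qa, C1qb and Tyrobp and the B cell markers Cd79b, Ms4a1 and Blk. Sums were 5.56 to 6.65 CPM in KO and 9.22 to 10.8 CPM in WT for 11 macrophage markers and 0.418 to 0.818 CPM in KO and 0.3 to 0.318 CPM in WT for 6 B cell markers. Of the macrophage markers Csf1r was 20.8-fold higher (3.29 CPM in KO and 0.157 CPM in WT) and Cd68 2.06-fold higher, while Lyz2, most of the WT sum, was 39.6-fold lower (0.213 CPM in KO and 8.53 CPM in WT). Pericyte markers summed to 125 to 145 CPM in KO and 171 to 216 CPM in WT, with Rgs5 19.4-fold higher and Cspg4 17.2-fold lower and Mcam 21.3-fold lower. Epithelial markers summed to 8.09 to 10.9 CPM in KO and 57.8 to 61.4 CPM in WT, nearly all of it Krt19, 7.07-fold lower, while Cdh1 was 6.04-fold higher and Epcam and Krt18 were at 0. Schwann and neural markers summed to 54.9 to 70.7 CPM in KO and 68.4 to 72.2 CPM in WT, with Mbp 5.92-fold lower and S100b and Tubb3 higher. The part of any of these cell types in the results was not tested, and in bulk RNA fewer cells of a type and less RNA per cell cannot be told apart.

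Of the 42 members, 29 passed the filter on low counts and entered the edgeR quasi-likelihood test over 18732 genes. Among them 12 were higher and 11 lower in KO at an adjusted p of 0.05, and 6 did not pass. Across all tested genes 69.3% passed, 35.1% higher and 34.2% lower, and the median log2 fold change was 0.03, against 79.3% and 0.05 for the tested members. In 24 of the 29 the 3 KO values and the 3 WT values did not overlap, against 75.5% of all tested genes. The difference from the background share was not tested. The other 13 members never exceeded 17 counts in a library. Of these, Tnf itself, Cd40lg, Tnfsf4 (OX40 ligand), Tnfrsf13b (TACI) and Tnfrsf17 (BCMA) had 0 counts in all 6 libraries.

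The main TNF receptors were expressed in both genotypes although their namesake ligand was not detected. Tnfrsf1a (ENSMUSG00000030341, chromosome 6), the death-domain receptor through which most TNF signals pass, had 306, 279 and 297 CPM in KO libraries and 113, 119 and 116 CPM in WT libraries. Every KO value lay above every WT value, and the gene was 2.53-fold higher (log2 fold change 1.34 ± 0.05 SE, edgeR adjusted p = 7.62e-08). Tnfrsf1b, the TNF receptor without a death domain, had 107, 111 and 111 CPM in KO and 83.5, 100.2 and 92.9 CPM in WT, a difference of 0.24 on the log2 scale (edgeR adjusted p = 0.0139). This narrow difference no longer passed with scaling by total counts (log2 fold change 0.11, adjusted p = 0.215) or from the deposited FPKM (0.12, adjusted p = 0.221). Ltbr, the lymphotoxin beta receptor that feeds the non-canonical NF-kB pathway, had 127, 128 and 126 CPM in KO and 98.4, 98.5 and 98.2 CPM in WT. Its replicates were the tightest of the members that changed, and it was 1.29-fold higher (edgeR adjusted p = 7.65e-05).

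Death receptors moved in both directions. Fas (ENSMUSG00000024778), which triggers apoptosis when bound by Fas ligand, had 32, 31.7 and 30.5 CPM in KO and 10.3, 11.9 and 10.7 CPM in WT. The 3 KO libraries lay far above the WT libraries, 2.86-fold higher on average (log2 fold change 1.52 ± 0.09 SE, edgeR adjusted p = 1.19e-06). Fas lies next to Acta2, the smooth muscle actin gene, which was at 161 CPM in KO and 16.4 CPM in WT. Tnfrsf10b, the mouse death receptor for TRAIL, had 37.9, 35.5 and 35.4 CPM in KO and 81.1, 86.2 and 88.2 CPM in WT. All KO values were below all WT values, and the receptor was 2.35-fold lower (edgeR adjusted p = 4.16e-07). Tnfrsf21, also called DR6, had 5.67, 5.53 and 4.83 CPM in KO and 11.3, 9.47 and 10.4 CPM in WT and was 1.94-fold lower (edgeR adjusted p = 0.000254). Tnfrsf25, the receptor DR3, had 0.818, 1.53 and 1.26 CPM in KO and 1.39, 1.43 and 1.303 CPM in WT. Its groups overlapped, and the difference of -0.20 on the log2 scale (95% interval -0.91 to 0.51) did not pass (edgeR adjusted p = 0.588). Ngfr, the neurotrophin receptor of this family, was counted in 1 KO library (14 counts) and in all 3 WT libraries (3 to 17 counts) and did not pass either (edgeR adjusted p = 0.496). Without KO replicate 3, the only KO library with Ngfr counts, it was called lower (adjusted p = 0.0301). Fas ligand itself stayed under the filter, with 8 counts over the KO libraries and 10 over the WT libraries.

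**Figure D1:**
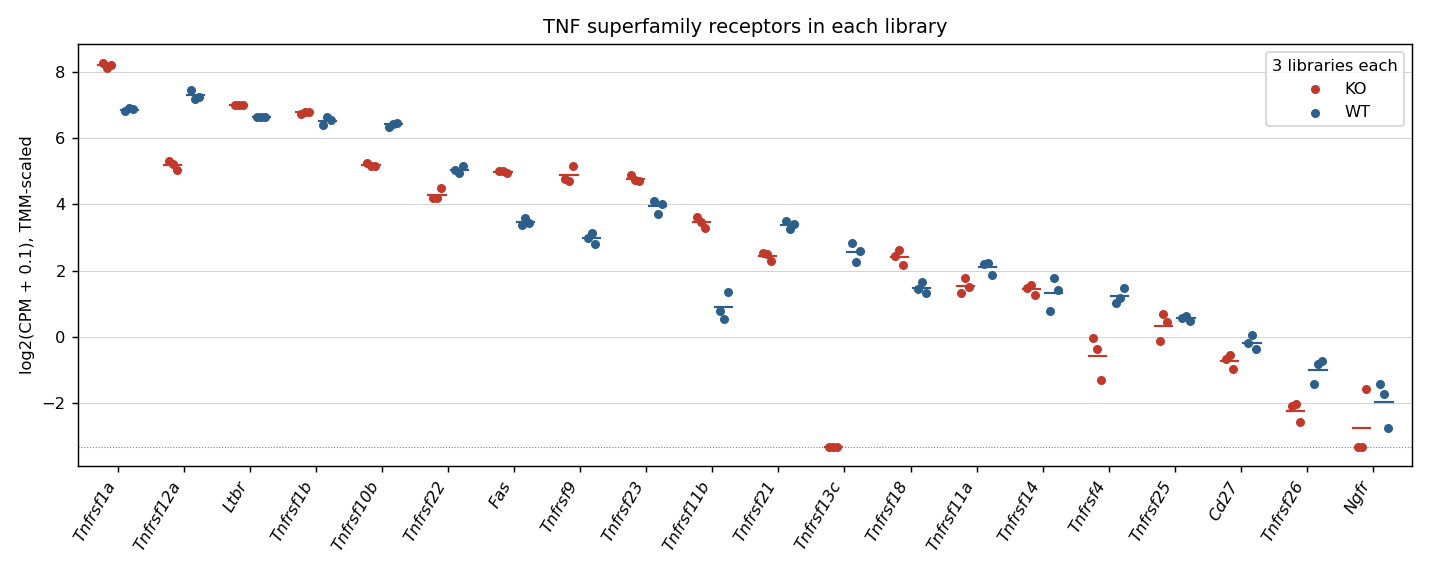
Receptors that entered the test, in order of their higher group mean, as log2(CPM + 0.1) in each library; red points are the 3 KO and blue points the 3 WT libraries, short lines are means on this scale and the dotted line marks 0 counts. All 3 KO libraries of Tnfrsf13c lie on that line, as do 2 of Ngfr, and the order of the genotypes differs from receptor to receptor.

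The decoy receptors for TRAIL, neighbours on chromosome 7, differed in direction. Tnfrsf22 and Tnfrsf23 are mouse decoy receptors that bind TRAIL and lack a death domain. Tnfrsf22 had 18.01, 18.3 and 22.2 CPM in KO and 32.6, 30.4 and 35.2 CPM in WT and was 1.68-fold lower (edgeR adjusted p = 0.0003). Its neighbour Tnfrsf23 had 29.6, 26.3 and 26.1 CPM in KO and 17.1, 13.1 and 16.1 CPM in WT and was 1.77-fold higher (edgeR adjusted p = 0.000313). Neither gene's groups overlapped. Tnfrsf26, an orphan receptor next to them, had 20 counts over the KO libraries and 77 over the WT libraries and was called lower (edgeR adjusted p = 0.0238), a call lost without KO replicate 1 or 3 or WT replicate 2 or 3 (adjusted p 0.0518 to 0.0998). The transcripts of Tnfrsf22 and Tnfrsf23 share part of their sequence. Of the 50-base words of Tnfrsf22, 17.3% also occur in Tnfrsf23, and 18% of those of Tnfrsf23 occur in Tnfrsf22. Counts of each are therefore uncertain where reads could not be placed. Genes other than Tnfrsf23 hold words of Tnfrsf22 too, at most 8.9% in any 1 of them (Gm47486, 0.24 CPM in KO and 0.198 CPM in WT). Tnfsf10, TRAIL itself, had 20 counts over the KO libraries and 129 over the WT libraries and was 5.95-fold lower (edgeR adjusted p = 0.00497), or 9.65-fold lower without KO replicate 3, which held 12 of the KO counts.

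The receptor of the highest WT level, Tnfrsf12a (ENSMUSG00000023905, chromosome 17), or Fn14, the growth-factor-inducible receptor for TWEAK, was lower in KO. It had 39.7, 36.8 and 32.6 CPM in KO libraries and 173, 146 and 151 CPM in WT libraries, 4.31-fold lower (log2 fold change -2.11 ± 0.09 SE, edgeR adjusted p = 2.44e-07). Its ligand went the other way. Tnfsf12 (ENSMUSG00000097328), TWEAK, had 36.9, 29.8 and 27.2 CPM in KO and 8.97, 10.2 and 10.8 CPM in WT and was 3.14-fold higher (edgeR adjusted p = 8.93e-06). Tnfsf12 shares its locus on chromosome 11 with Tnfsf13 (APRIL) and with Tnfsfm13, a gene annotated across both. Of the 50-base words of Tnfsf12, 46.8% also occur in Tnfsfm13, and for Tnfsf13 the share is 57.3%. Tnfsfm13 itself had 26.4 ± 6.799 CPM in KO and 7.599 ± 1.43 CPM in WT (SD, n = 3 each) and was higher in KO, so all 3 genes of the locus had the same direction but the counts of each depend on how shared reads were assigned.

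Ligands and a receptor that act on B cells also differed in direction. Tnfsf13b, BAFF, the survival factor of B cells, had 2.54, 2.84 and 3.21 CPM in KO and 0.333, 0.633 and 0.572 CPM in WT and was 5.57-fold higher (edgeR adjusted p = 0.000143). Tnfsf13, the related ligand APRIL, had 3.32, 2.36 and 2.68 CPM in KO and 0.428, 0.8499 and 0.5404 CPM in WT and was 4.596-fold higher (edgeR adjusted p = 0.000396). No KO library had as little of either ligand as any WT library. Tnfrsf13c (ENSMUSG00000068105, chromosome 15), the BAFF receptor, had 0 counts in all KO libraries and 6.97, 4.67 and 5.98 CPM in WT libraries (1096 counts). Against a floor of 3 counts over the KO libraries (0.0174 CPM) it was at least 338-fold lower (edgeR adjusted p = 4.34e-06). Tnfrsf13c is known mainly from B cells. The 6 B cell markers summed to 0.418 to 0.818 CPM in KO and 0.3 to 0.318 CPM in WT, with Cd79b, Ms4a1 and Blk at 0. Most of the WT sum was Pax5, at 0.263 CPM in KO and 0.278 CPM in WT. The part of B cells in the Tnfrsf13c counts was not tested. Tnfrsf13b and Tnfrsf17, the receptors of this family that bind APRIL and can also bind BAFF, had 0 counts in every library.

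Tnfsf15 (ENSMUSG00000050395, chromosome 4), TL1A, the ligand of DR3, was the most abundant ligand of WT cells by CPM and by FPKM and was not counted in any KO library. It had 49.9, 48.5 and 55.8 CPM in WT, 9572 counts in all, against 0 counts in KO, at least 2958-fold lower against the same floor (edgeR adjusted p = 4.43e-08). TL1A is known from endothelial cells, whose 9 markers summed to 1.58 to 1.93 CPM in KO and 3.37 to 3.7 CPM in WT, with Tie1 and Cldn5 at 0 in every library. Kdr had 0 counts in KO and 104 in WT, or 0.561 CPM (at least 32.3-fold lower, edgeR adjusted p = 0.000566). Cdh5, under the filter, had 0 counts in KO and 61 in WT, or 0.332 CPM. Pecam1 was 2.35-fold lower and Tek 5.18-fold lower, and Vwf, at 0.946 CPM in KO and 0.151 CPM in WT, was higher. The part of endothelial cells in the Tnfsf15 counts was not tested. The coding gene next to Tnfsf15, Tnfsf8 (CD30 ligand), had 41 counts over the KO libraries and 25 over the WT libraries and did not pass (edgeR adjusted p = 0.621). Tnc, the matrix protein tenascin C and the coding gene after that, went the opposite way to Tnfsf15, at 95.6 CPM in KO and 26.3 CPM in WT. On chromosome 15, Tnfrsf13c lies beside Cenpm, a kinetochore gene at 5.99 CPM in KO and 27.7 CPM in WT. Beyond Cenpm, 1500009C09Rik had 0 counts in KO and 13 in WT. On the other side Shisa8, under the filter, had 18 counts over the KO libraries and 45 over the WT libraries. Srebf2, the coding gene after Shisa8, was at 171 CPM in KO and 129 CPM in WT and did not pass (edgeR adjusted p = 0.0927).

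Upstream sequences were sought for members at 0 counts in 1 genotype and at least 5 CPM in the other, for osteoprotegerin and for the TRAIL receptors. No window was available for Tnfrsf11b, Tnfrsf22 or Tnfrsf10b. The 3 sequences shown are those of Tnfsf15 and Tnfrsf13c, with at least 5 CPM in WT and 0 counts in KO, and of the TRAIL decoy Tnfrsf23. Each runs 5′ to 3′ on the minus strand, over a 300-base window that ends 50 bases after the annotated start, from RefSeq on build GRCm38.p6, at chr4:63745010-63745309 for Tnfsf15, chr15:82224331-82224630 for Tnfrsf13c and chr7:143685826-143686125 for Tnfrsf23. Capitals mark matches to 3 patterns searched on both strands: GGGNNNNNCC, a loose form of the NF-kB site, TGANTCA, the AP-1 site, and TATAAA; no 2 marked matches overlap.
Tnfsf15: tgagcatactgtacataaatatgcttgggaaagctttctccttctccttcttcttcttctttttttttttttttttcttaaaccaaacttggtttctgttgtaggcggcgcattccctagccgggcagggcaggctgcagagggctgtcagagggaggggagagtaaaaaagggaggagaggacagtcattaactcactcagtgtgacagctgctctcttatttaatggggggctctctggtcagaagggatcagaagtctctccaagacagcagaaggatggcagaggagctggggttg
Tnfrsf13c: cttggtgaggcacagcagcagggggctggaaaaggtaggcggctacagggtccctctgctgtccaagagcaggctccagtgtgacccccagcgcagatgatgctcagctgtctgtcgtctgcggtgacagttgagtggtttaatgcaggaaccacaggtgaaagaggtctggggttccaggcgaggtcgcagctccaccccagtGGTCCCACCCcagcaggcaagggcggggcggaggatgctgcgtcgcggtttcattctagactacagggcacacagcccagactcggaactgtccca
Tnfrsf23: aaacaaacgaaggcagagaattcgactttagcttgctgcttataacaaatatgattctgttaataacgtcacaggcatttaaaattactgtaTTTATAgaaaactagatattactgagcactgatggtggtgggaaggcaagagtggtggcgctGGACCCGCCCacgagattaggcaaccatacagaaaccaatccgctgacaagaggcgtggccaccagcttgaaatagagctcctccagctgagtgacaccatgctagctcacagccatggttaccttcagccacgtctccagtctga
The Tnfsf15 window held no match to any of the 3 patterns. The Tnfrsf13c window held 1 NF-kB pattern starting 46 bases before the start, and the Tnfrsf23 window held 1 NF-kB pattern at 96 bases before and 1 TATAAA pattern at 158 bases before. All 3 matches lie on the opposite strand, so the capitals show the reverse complement of each pattern. The windows had 48%, 61.7% and 46.3% G and C and 3, 12 and 9 CpG for Tnfsf15, Tnfrsf13c and Tnfrsf23, where the median of all 32851 windows was 52.7% and 7 CpG. Windows were found for 32 of the 42 members, 36 windows in all, of which 23 held the NF-kB pattern, 7 the AP-1 site and 6 TATAAA, where 50.8%, 7.81% and 13.6% of all windows did. A match to letters is not a binding site.

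**Figure D2:**
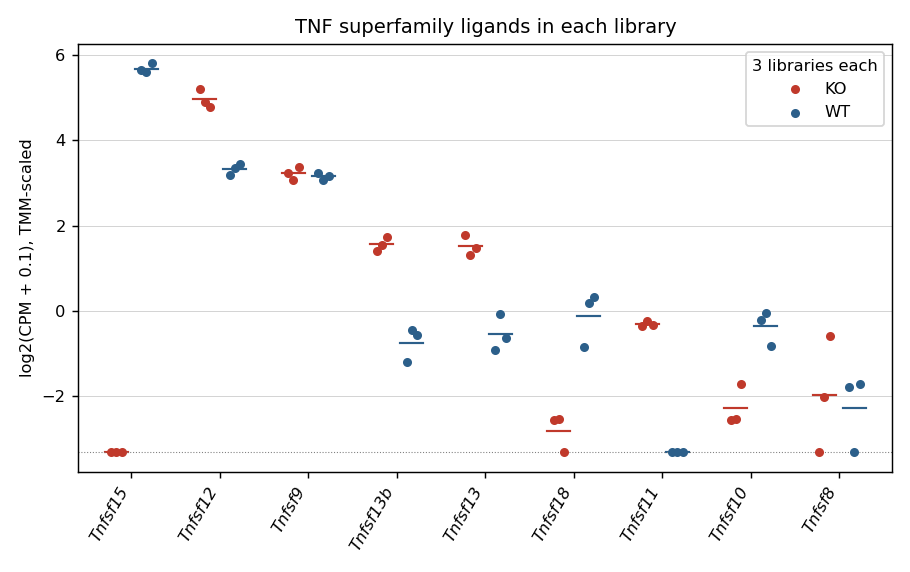
Ligands that entered the test, in order of their higher group mean, as log2(CPM + 0.1) in each library; red points are the 3 KO and blue points the 3 WT libraries, short lines are means on this scale and the dotted line marks 0 counts. Tnfsf15 has 0 counts in every KO library and Tnfsf11 in every WT library, and Tnfsf8 and Tnfsf9 overlap between genotypes.

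RANKL and its decoy receptor osteoprotegerin were both higher in KO. Tnfsf11 (ENSMUSG00000022015, chromosome 14), RANKL, which drives osteoclast formation, had 40, 41 and 41 counts in the KO libraries, or 0.682, 0.745 and 0.695 CPM, and 0 counts in all WT libraries. This was at least 43.9-fold higher when the WT group was set to its floor, 3 counts in all (0.0161 CPM; edgeR adjusted p = 0.000272), at a level that stayed under 1 CPM. Tnfrsf11b (ENSMUSG00000063727, chromosome 15), osteoprotegerin, the secreted decoy that takes up RANKL and TRAIL, had 12.2, 11.03 and 9.58 CPM in KO libraries and 1.6, 1.35 and 2.48 CPM in WT libraries. The lowest KO library was well above the highest WT library, and the gene was 6.03-fold higher (log2 fold change 2.59 ± 0.24 SE, edgeR adjusted p = 2.05e-05). Tnfrsf11a, RANK, the signalling receptor of RANKL, had 2.39, 3.29 and 2.71 CPM in KO and 4.51, 4.57 and 3.53 CPM in WT, 1.503-fold lower (edgeR adjusted p = 0.0315). That call was lost without KO replicate 1 or 3 or WT replicate 1 or 2 (adjusted p 0.0786 to 0.0993) and from the deposited FPKM (adjusted p = 0.0621). Of 7 osteoblast markers 2 were higher and 3 lower, with sums of 53.8 to 61.2 CPM in KO and 63.1 to 68.5 CPM in WT, Sp7 being 37.6-fold higher and Alpl 9.19-fold lower. Of 8 osteoclast markers 2 were higher and 1 lower, where 35.1% of all tested genes were higher and 34.2% lower. The osteoclast sum was 44.5 to 49.8 CPM in KO and 3.44 to 4.73 CPM in WT. Ctsk, at 44.4 CPM, was nearly all of the KO sum. Calcr, Ocstamp, Dcstamp and Atp6v0d2 were at 0 in every library.

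Costimulatory members, best known from T cells, differed in direction. The 9 leukocyte and T cell markers summed to 0.682 to 0.818 CPM in KO and 2.29 to 2.62 CPM in WT, of which Lck was at 0.284 CPM in KO and 2.33 CPM in WT. Trac went the other way, at 0.28 CPM in KO and 0.0701 CPM in WT (edgeR adjusted p = 0.0258). Cd4, under the filter, had 26 counts over the KO libraries and 4 over the WT libraries. Tnfrsf9, the receptor 4-1BB, had 26.9, 26.1 and 35.3 CPM in KO and 7.73, 8.77 and 6.91 CPM in WT and was 3.77-fold higher (edgeR adjusted p = 6.70e-06). Its ligand Tnfsf9 had 9.37, 8.25 and 10.3 CPM in KO and 9.28, 8.33 and 8.88 CPM in WT. The ligand's groups overlapped, and its log2 fold change of 0.08 had a 95% interval of -0.22 to 0.37 (edgeR adjusted p = 0.607). Tnfrsf18, GITR, had 5.35, 6.03 and 4.38 CPM in KO and 2.63, 3.02 and 2.38 CPM in WT and was 1.96-fold higher (edgeR adjusted p = 0.00203). Gm16008, a gene on the opposite strand that shares 18.7% of the 50-base words of Tnfrsf18, was at 5.66 ± 0.609 CPM in KO and 2.49 ± 0.205 CPM in WT, and without a stated strand setting reads of the pair cannot be told apart. The same holds for Gm11110, opposite Tnfsf9, at 6.26 ± 0.614 CPM in KO and 2.59 ± 0.619 CPM in WT. Tnfsf18, the GITR ligand, had 0.0682, 0.0727 and 0 CPM in KO and 0.459, 1.03 and 1.14 CPM in WT, 18.1-fold lower (edgeR adjusted p = 0.00202). Thus the ligand GITRL was lower where its receptor was higher.

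Tnfrsf4, OX40, which lies next to Tnfrsf18 on chromosome 4, had 0.869, 0.673 and 0.305 CPM in KO and 1.93, 2.15 and 2.67 CPM in WT and was 3.65-fold lower (edgeR adjusted p = 0.00305). The neighbours Tnfrsf4 and Tnfrsf18 therefore had opposite signs. Tnfrsf14, HVEM, the receptor of LIGHT, had 2.68, 2.84 and 2.31 CPM in KO and 1.63, 3.35 and 2.58 CPM in WT, with overlapping groups and a log2 interval of -0.61 to 0.71 (edgeR adjusted p = 0.888). Cd27 had 0.528, 0.582 and 0.407 CPM in KO and 0.776, 0.933 and 0.668 CPM in WT. Its groups did not overlap, yet the difference of -0.65 on the log2 scale did not pass (edgeR adjusted p = 0.15), while it passed from the deposited FPKM (adjusted p = 0.0356). The ligands of the last 2 receptors were barely counted, Tnfsf14 (LIGHT) with 5 counts over the KO libraries and 0 over the WT libraries and Cd70 with 5 over the KO libraries and 0 over the WT libraries.

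The remaining members under the filter were Lta, Ltb, Cd40, Tnfrsf8 and Tnfrsf19. Ltb, lymphotoxin beta, had 0 counts over the KO libraries and 30 over the WT libraries, at least 9.26-fold lower against the floor, and was called when no filter was used (edgeR adjusted p = 0.0225). Cd40, a receptor of antigen-presenting cells, had 0 counts over the KO libraries and 18 over the WT libraries, and was not called without a filter (edgeR adjusted p = 0.0982). Lta, lymphotoxin alpha, had 9 counts in KO and 7 in WT, Tnfrsf8 (CD30) 9 in KO and 24 in WT, and Tnfrsf19 (TROY) 0 in KO and 5 in WT. The counts of Lta, Cd40, Tnfrsf8 and Tnfrsf19 are too few to order the genotypes, and the call of Ltb without a filter rests on 30 WT counts.

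**Figure D3:**
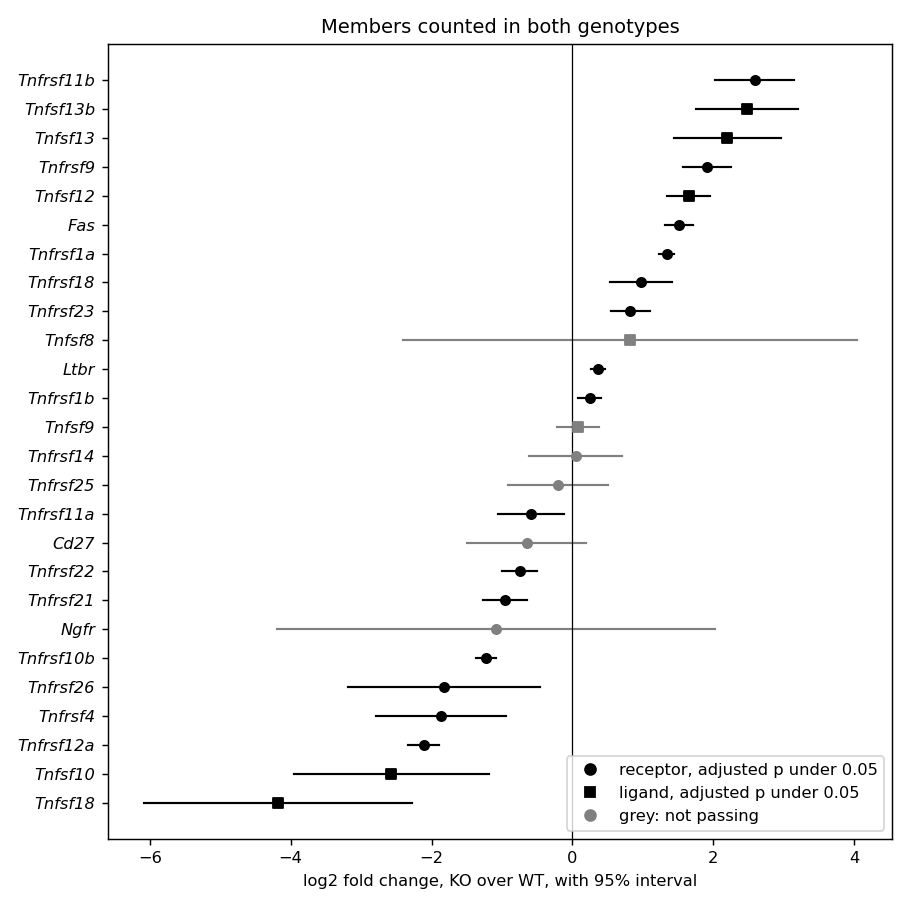
Log2 fold change of KO over WT for the 26 tested members counted in both genotypes, with the 95% interval from the edgeR standard error; circles are receptors, squares are ligands, black passed an adjusted p of 0.05 and grey did not. The points run from -4.18 for Tnfsf18 to 2.59 for Tnfrsf11b, and Tnfsf11, Tnfsf15 and Tnfrsf13c are left out because 1 genotype had 0 counts.

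Levels of different genes can be set side by side only per length, for which the authors' FPKM (fragments scaled by transcript length and library depth) were used. In KO cells the order began with Tnfrsf1a at 118 ± 6.36 FPKM, Ltbr at 51.95 ± 0.466, Tnfrsf12a at 32.9 ± 4.22 and Tnfrsf1b at 24.3 ± 0.653 FPKM (mean ± SD, n = 3), and in each of these steps every library of the higher gene exceeded every library of the next. Fas, Tnfsf12 and Tnfrsf9 followed at 18.99 to 19.3 FPKM and overlapped. In WT cells Tnfrsf12a led at 154 ± 12.1 FPKM, before Tnfrsf1a at 50.3 ± 2.01, Ltbr at 43.95 ± 0.508, Tnfrsf10b at 24.97 ± 1.18 and Tnfrsf1b at 22.5 ± 2.14 FPKM, of which only the last 2 overlapped. Tnfrsf12a thus held the first place in WT and the third in KO.

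Ligands were set beside their receptors on the same scale. On the TWEAK axis the ligand was at 19.2 ± 2.93 FPKM in KO and 6.78 ± 0.769 FPKM in WT and its receptor Tnfrsf12a at 32.9 ± 4.22 FPKM in KO and 154 ± 12.1 FPKM in WT, so the 2 levels were closer together in KO. On the RANK axis osteoprotegerin was at 3.25 ± 0.382 FPKM in KO and 0.584 ± 0.187 FPKM in WT, RANK at 0.618 ± 0.124 FPKM in KO and 1.03 ± 0.288 FPKM in WT, and RANKL at 0.261 ± 0.0113 FPKM in KO and listed at 0 in WT. In KO the decoy thus exceeded both RANK and RANKL in every library. On the TL1A axis the ligand was listed at 0 in KO and stood at 14.02 ± 0.971 FPKM in WT, whereas its receptor Tnfrsf25 was at 0.736 ± 0.298 FPKM in KO and 0.937 ± 0.111 FPKM in WT. On the TRAIL axis Tnfrsf10b was at 9.77 ± 0.274 FPKM in KO and 24.97 ± 1.18 FPKM in WT, the decoy Tnfrsf22 at 6.69 ± 0.102 FPKM in KO and 11.3 ± 1.26 FPKM in WT, and the decoy Tnfrsf23 at 8.74 ± 0.215 FPKM in KO and 5.32 ± 0.552 FPKM in WT. The death receptor lay above each decoy in every library of both genotypes, by a wider margin in WT than in KO.

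**Figure D4:**
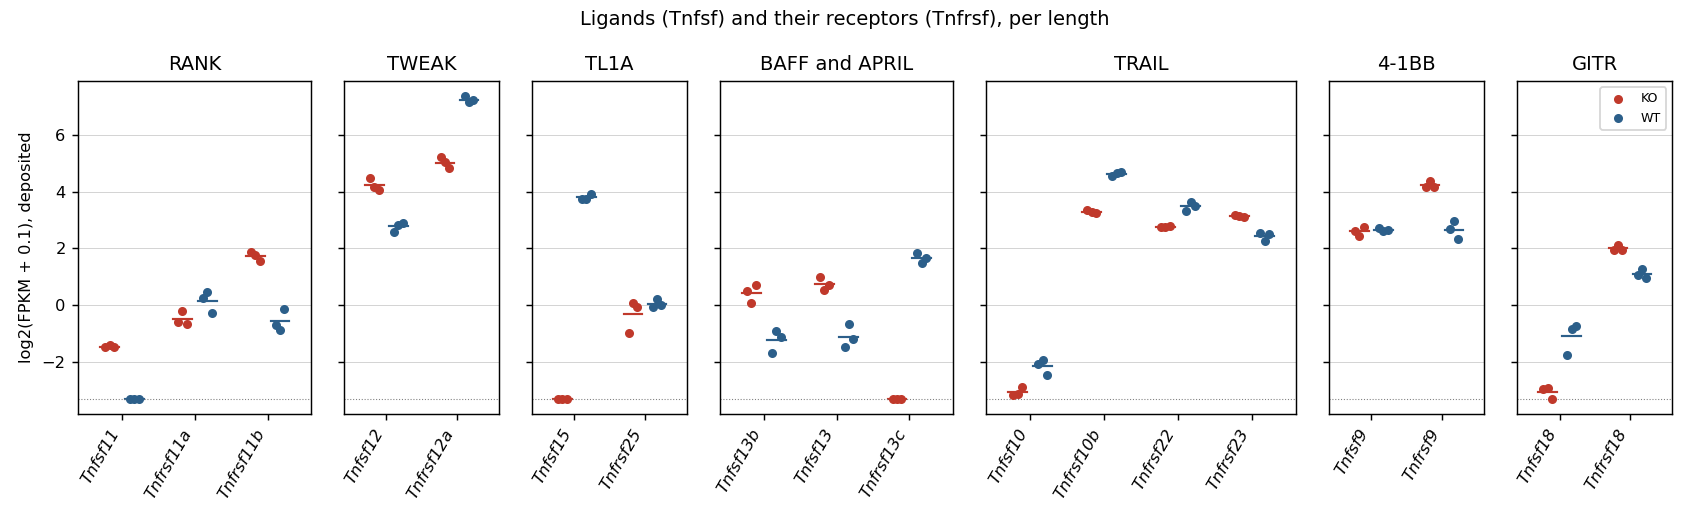
Deposited FPKM of ligands and their receptors, as log2(FPKM + 0.1) in each library; red points are the 3 KO and blue points the 3 WT libraries, short lines are means on this scale and the dotted line marks 0. TWEAK and its receptor Tnfrsf12a move in opposite directions between genotypes, as do BAFF (Tnfsf13b) and its receptor Tnfrsf13c and the ligand Tnfsf18 and Tnfrsf18. APRIL (Tnfsf13) stands beside BAFF without a receptor of its own, Tnfrsf13b and Tnfrsf17 being at 0 counts.

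Superfamily genes named by other symbols differed as well. Of Eda, Edar, Eda2r and Relt, 2 were higher and 1 lower in KO and Edar was not tested. Over all tested genes the shares were 35.1% higher and 34.2% lower. Eda2r, the X-linked receptor of ectodysplasin A2, was at 87.8 ± 4.85 CPM in KO and 23.3 ± 1.32 CPM in WT, 3.77-fold higher (edgeR adjusted p = 8.66e-08). Relt, a receptor expressed in lymphoid tissue, was 4.69-fold lower at 5.55 CPM in KO and 26.1 CPM in WT. Eda, the ligand, stayed under 1 CPM, at 0.839 CPM in KO and 0.0764 CPM in WT, and was called higher (edgeR adjusted p = 0.00676).

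Adaptors and enzymes downstream of the receptors were almost all measured, and their directions were mixed too. Of 111 listed signalling genes 107 were tested, 50 higher, 38 lower and 19 not passing, where 69.3% of all tested genes passed in either direction. Of 12 TRAF adaptors and regulators, 5 were higher and 4 lower. Traf2, the adaptor shared by Tnfrsf1a complexes and Tnfrsf1b, was 2.05-fold lower at 47.6 CPM in KO and 97.3 CPM in WT, and Tank, a TRAF-binding regulator, was 1.94-fold lower. Traf3ip2, the adaptor of the interleukin 17 receptor, was 3.66-fold higher and Nsmaf, which binds Tnfrsf1a, was 1.73-fold higher. Traf1, named after its values were seen, was at 0.374 CPM in KO and 6.48 CPM in WT (edgeR adjusted p = 0.000979).

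Of 17 death-domain adaptors, RIP kinases and caspases, 6 were higher and 9 lower, where 35.1% of all tested genes were higher and 34.2% lower. Cflar, the caspase 8 inhibitor cFLIP, was 4.36-fold higher at 133 ± 0.999 CPM in KO and 30.5 ± 0.439 CPM in WT (SD, n = 3 each; edgeR adjusted p = 8.02e-09). Faf1, a Fas-binding factor, was 2.86-fold lower, and Casp6, an executioner caspase, was 3.66-fold higher. Of 15 kinases of the IKK, TAK1 and NIK branches, 6 were higher and 7 lower, or 3 and 7 with scaling by total counts and 4 and 6 from the deposited FPKM. Map3k8, a kinase that activates ERK downstream of TNF, was 18.8-fold higher at 50.1 CPM in KO and 2.66 CPM in WT. The IKK subunits moved apart: Chuk (IKK alpha) was 2.12-fold lower and Ikbkg (NEMO, the regulatory subunit) 3.17-fold higher, and Tab1, the TAK1 partner, was 1.54-fold lower.

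Of 16 ubiquitin ligases and deubiquitinases of the TNF receptor complex, 6 were higher, 3 lower and 7 not passing, or 5 higher and 4 lower under each of those other scalings. Spata2, which brings the deubiquitinase Cyld to the complex, was 2.74-fold lower and Otulin, which trims linear ubiquitin chains, 1.79-fold lower. Tnip1, a partner of the inhibitor A20, was 2.26-fold higher and Birc2, the ligase cIAP1, 2.22-fold higher. Of 9 tested sheddases, convertases and their partners, 6 were higher and 3 lower. Beside these 2 lists, 35.1% of all tested genes were higher and 34.2% lower. Adam17, the protease that releases TNF and its receptors from the membrane, was 1.67-fold higher at 141 CPM in KO and 84.3 CPM in WT. Its cofactors split, Rhbdf1 being 2.63-fold higher and Rhbdf2 12.3-fold lower, and Adam12 was 54.5-fold higher.

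Of 13 tested neurotrophins and partners of Ngfr, 8 were higher and 3 lower, although Ngfr itself was near 0. Sorcs2, a sortilin-family receptor, was 125-fold higher at 47.9 CPM in KO and 0.381 CPM in WT, Maged1, an Ngfr-interacting protein, 1.99-fold higher, Nradd 2.37-fold higher and Arhgdia, which binds Ngfr, 1.66-fold higher. Of 24 genes known to be induced by TNF, 12 were higher and 8 lower. For both lists the shares over all tested genes were 35.1% higher and 34.2% lower. The chemokine Ccl2 was 9.67-fold higher at 168 CPM in KO and 17.3 CPM in WT, and Nfkbia, the NF-kB inhibitor, was 2.53-fold higher. Cxcl10 was 9.76-fold lower at 7.66 CPM in KO and 74.8 CPM in WT, and Nfkb2 was 2.99-fold lower. The list did not have 1 direction, and Tnf was at 0 counts in both genotypes.

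**Figure D5:**
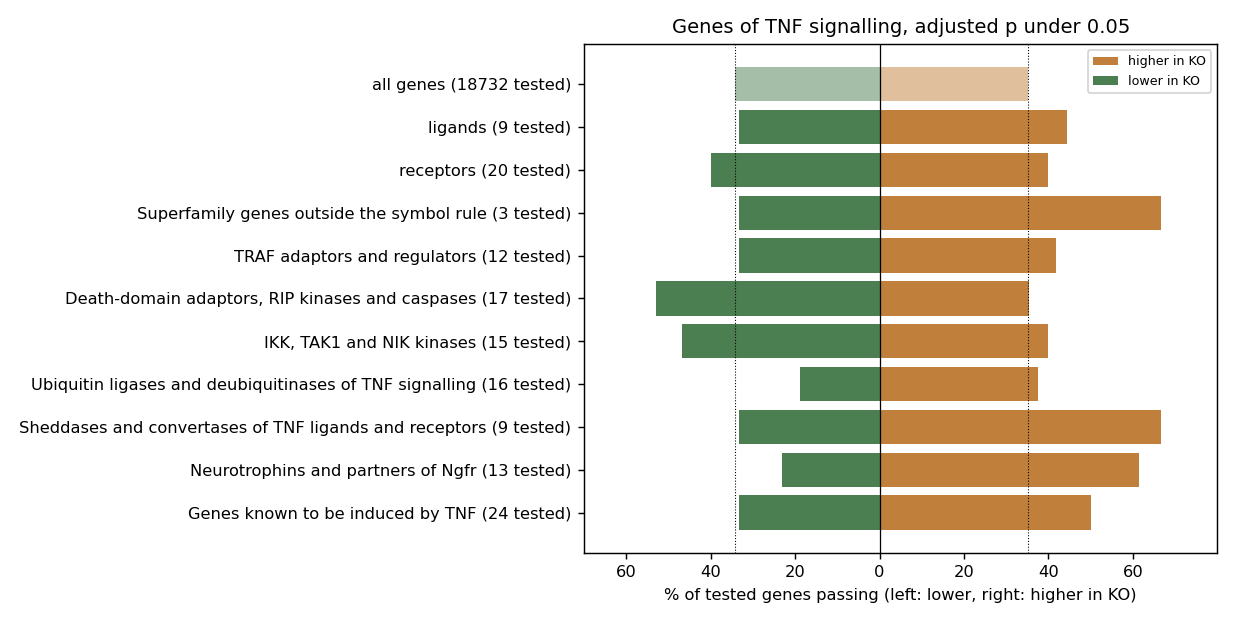
Share of tested genes that were higher (right) or lower (left) in KO at an adjusted p of 0.05, for the ligands, the receptors and each signalling list; the pale bar and dotted lines give the shares over all 18732 tested genes, 35.1% higher and 34.2% lower. Lists of 3 to 24 tested genes lie on both sides of those lines.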

How the data were processed

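RNA was sequenced from 3 KO and 3 WT libraries, grouped by the sample titles. Each Ensembl gene has a raw read count and an FPKM in the deposited table, per the file headers; the authors' FPKM normalization is not described in the sources used here. CASAVA 1.8, HISAT2, SAMtools 1.3.1 and edgeR with mouse build GRCm39 are named in the submitters' processing notes, without roles; the sources used here give no read counter, strand setting or annotation release. Symbols, gene order and transcripts came from GENCODE M21 (GRCm38), with 55394 of 56393 IDs matched, so no gene coordinates are given.

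Counts were filtered with filterByExpr, scaled with TMM and compared between KO and WT over the 18732 genes kept, using edgeR 4.0.16 under R 4.3.3 (quasi-likelihood test, robust dispersion), with Benjamini-Hochberg adjustment at 0.05. The standard error is the log2 fold change over the root of F. Floors of 3 counts over a group cover counting error only. Alternatives were DESeq2 1.42.0, limma-voom (limma 3.58.1), scaling by total counts, other filters and thresholds, autosomal genes only, limma on log2(FPKM + 0.1), the replicate number as a block and each library left out. Replicates of the same number did not deviate together (r = -0.0237, 0.018 and -0.00904), so the numbers were not taken as pairs.

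Members and lists were chosen with earlier results of these data known. Every member is given, with each library's value where 1 group reached 1 CPM, and of each list the 4 members with the smallest adjusted p at 1 CPM or more, except 1 gene that is not reported here.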

Additional observations from a re-analysis of the deposited data

How the results depend on the processing

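The members called higher numbered 11 or 12 in every alternative with the same threshold and the members called lower 8 to 12, and no count over members, all signalling genes or all tested genes moved by over 1.5 times. Among single lists, the IKK, TAK1 and NIK kinases called higher fell to 3 with scaling by total counts, against 6, and of Eda and Eda2r, both X-linked and both higher, 1 was left at 1 CPM in 3 libraries and 0 with autosomal genes only. With the replicate number as a block (replicate block), 12 members were higher and 9 lower, the calls of Tnfrsf11a (adjusted p = 0.0553) and Tnfrsf26 (adjusted p = 0.0884) being lost. With an adjusted p under 0.01, 11 were higher and 9 lower, and with at least a 2-fold change 8 and 8. The shares of all tested genes at these stricter thresholds were not computed, so these counts cannot be set against a background. Over the tested members and Nono, 388 values kept direction and side of the threshold, 13 lost the call, 2 gained it and 9 turned sign. The 9 belong to members that did not pass: Tnfrsf14 was at -0.0836 (log2) with scaling by total counts and -0.0639 from FPKM, and between -0.179 and 0.308 with a library left out; Tnfsf9 was at -0.0514 and -0.0506 under these and between -0.00181 and 0.162 with a library left out; Tnfrsf25 lay between -0.405 and 0.0138 and Tnfsf8 between -0.866 and 1.4 with a library left out. The calls lost were those of Tnfrsf11a, Tnfrsf26 and Tnfrsf1b. Scaling by total counts moved the median log2 fold change of all tested genes down by 0.13. Members at 0 or a few counts are limited by depth, and a gene at 0 counts may be present below the floor of 0.0161 CPM (WT) or 0.0174 CPM (KO).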
